A study of Sus scrofa domesticus with 6 samples.

Results

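Cytosolic ribosomal protein genes, which encode the protein subunits of the ribosome outside mitochondria, were followed in the mandibular condyle of miniature pig embryos. Members were the genes whose name in the deposited table is that of a large-subunit protein (RPL, RPLP) or a small-subunit protein (RPS, RPSA), with the S6 kinase genes left out and the row with most counts kept where a name occurred more than once. This gave 66 members among 25322 gene rows, 40 of the large and 26 of the small subunit. The condyle is the growing end of the lower jaw, and the series compares it at 85 and at 45 days of gestation by RNA sequencing of total RNA depleted of ribosomal RNA. Each age has 3 libraries, of domestic pig (Sus scrofa domesticus) condyle cartilage. The labels give no genotype or sex, set the libraries apart by age alone and do not say whether the libraries of an age are of separate animals. A p-value here therefore covers only the spread between these libraries.

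Each ribosome carries a single copy of nearly every ribosomal protein, so cells make these proteins in balanced amounts from separate genes. Their mRNAs begin with a terminal oligopyrimidine (TOP) stretch through which mTORC1 controls their translation, and growing or dividing cells use much of their transcription on them. In the growing skeleton ribosome production matters to cartilage: inherited changes of ribosomal proteins or of ribosome assembly factors can cause skeletal dysplasia in humans.

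Total counts ran from 12546729 to 16033822 in the day 85 libraries and from 14221365 to 16559616 in the day 45 libraries. The labelled cartilage was checked against 10 chondrocyte markers, which took 0.0975%, 0.433% and 0.187% of counts in day 85 replicates 1, 2 and 3 and 1.45%, 1.29% and 1.24% in day 45 replicates 1, 2 and 3. COL2A1, the main cartilage collagen, stood at 28.8, 1074 and 50.6 CPM (counts scaled to library size with TMM factors) at day 85, against 4999, 4107 and 3733 CPM at day 45, and MATN1, a matrilin of cartilage, at 0.155, 14.1 and 0.132 CPM at day 85, against 270, 266 and 90.8 CPM at day 45. No chondrocyte marker was at 0 over all libraries. By the edgeR estimate 9 of the 10 were lower at day 85, beside 48.2% of all tested genes. In 9 the day 85 libraries lay below without overlap, beside 17.6% of all tested genes. ACAN stood at 233, 947 and 990 CPM at day 85, against 2696, 2832 and 2167 CPM at day 45. CNMD was higher by that estimate, with overlap, at 1.31, 27.3 and 0.264 CPM at day 85, against 8.2, 2.6 and 3.27 CPM at day 45. Day 85 replicate 2 stood apart from the other two at its age, with 1.25% of counts in 8 osteoclast markers, against 0.193% and 0.228% in day 85 replicates 1 and 3, and with 0.255% in the skeletal muscle markers, against 4.21% and 3.38% in day 85 replicates 1 and 3. Some of the counts and calls without it are given below.

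Ribosomal protein genes took a smaller share of the RNA at day 85 than at day 45. The 66 members held 4.59%, 4.11% and 4.12% of all counts in day 85 replicates 1, 2 and 3, against 5.86%, 5.56% and 5.08% in day 45 replicates 1, 2 and 3. Every day 85 library lay below every day 45 library, and the nearest pair was day 85 replicate 1 and day 45 replicate 3. The mean share was 4.27% ± 0.279 at day 85, against 5.5% ± 0.397 at day 45 (SD, n = 3 each), a difference of -1.23 percentage points, larger than the SD of either age. A two-sided exact permutation test gave p = 0.1, the smallest that 3 against 3 libraries allow, and 0.186 after Benjamini-Hochberg adjustment over 13 such tests. Counting error was small beside this: the 95% Wilson interval of a share was 4.58% to 4.61% in day 85 replicate 1 and 5.06% to 5.09% in day 45 replicate 3, and covers counting error only. In bulk tissue fewer cells with high expression and less of these mRNAs per cell cannot be told apart.

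Both subunits were lower together. Large-subunit members took 2.43%, 2.19% and 2.23% of counts at day 85, against 3.06%, 2.9% and 2.7% at day 45, and small-subunit members took 2.17%, 1.91% and 1.89% at day 85, against 2.8%, 2.65% and 2.38% at day 45. In neither subunit did the ages overlap. The ratio of large- to small-subunit counts was 1.12, 1.15 and 1.18 at day 85, against 1.09, 1.09 and 1.13 at day 45, ages that overlap (two-sided exact permutation p = 0.2, adjusted 0.325). The 10 most abundant members made up 34.7% to 35.9% of the family's counts at day 85, against 34.8% to 36.5% at day 45, so the ages overlapped here too (exact permutation p = 0.6, adjusted 0.65).

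**Figure D1:**
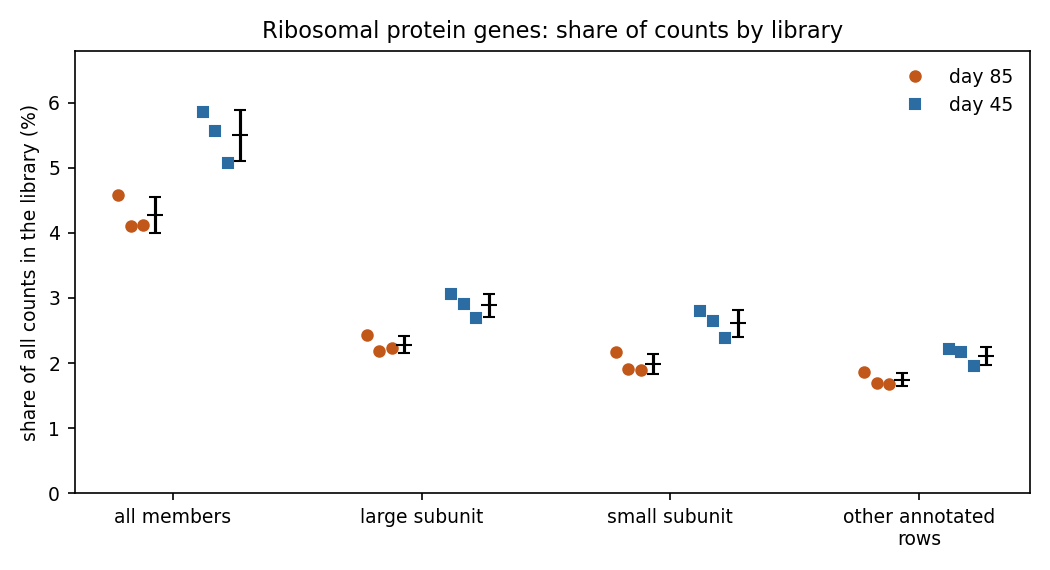
Share of all counts (%, vertical axis) taken by the 66 members, by their large- and small-subunit genes and by 25 further rows annotated as cytosolic ribosomal proteins; circles are day 85 libraries, squares day 45 libraries, and bars show mean ± SD (n = 3). The day 85 libraries sit between 4.11% and 4.59% for all members, below the day 45 libraries at 5.08% to 5.86%.

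Marker lists of other cell types are set beside the lower share. The skeletal muscle list (13 of 16 markers with a row, of which TTN had fewer than 10 counts in all) held 0.255% to 4.21% of counts at day 85, against 0.428% to 1.07% at day 45. With those genes taken out of the total, the member share was 4.8%, 4.12% and 4.26% at day 85, against 5.91%, 5.58% and 5.13% at day 45, and the ages still did not overlap. With the 20 most abundant other rows taken out it was 5.34%, 5.12% and 4.99% at day 85, against 7%, 6.69% and 5.93% at day 45. Without day 85 replicate 2 the difference was -1.14 points. The 10 cell cycle markers, none at 0 over all libraries, took 0.0381%, 0.0512% and 0.039% of counts at day 85, against 0.0842%, 0.081% and 0.099% at day 45, moving the same way as the ribosomal protein share. Other lists took larger shares at day 85 with no overlap of the ages: the 8 osteoblast markers 4.78%, 7.64% and 5.25% at day 85, against 4.26%, 4.76% and 3.42% at day 45, and the osteoclast markers 0.193% to 1.25% at day 85, against 0.0283% to 0.125% at day 45. COL1A2 held most of the osteoblast list's counts, at 39985, 64395 and 46978 CPM at day 85, against 38328, 42227 and 28985 CPM at day 45, with overlap. By the edgeR estimate 6 of the 8 osteoblast markers were higher at day 85, 3 of them with no overlap. RUNX2 and SP7 were lower, with overlap, at 127, 265 and 200 and at 115, 256 and 198 CPM at day 85. At day 45 they stood at 275, 389 and 236 and at 285, 302 and 173 CPM. Endothelial markers (7 of 8 with a row) took 0.071% to 0.128% at day 85, against 0.0212% to 0.0474% at day 45, and the 8 macrophage markers, of which CD163 had fewer than 10 counts in all, 0.0273% to 0.0747% at day 85, against 0.00783% to 0.0147% at day 45. None of these markers was at 0 over all libraries. The part of any of these cell types, of dividing cells or of chondrocytes in the lower ribosomal protein share was not tested.

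Per length, the members kept nearly the same order in all libraries. Mean deposited FPKM (counts scaled to gene length and library total) of the 60 members that passed the filter on low counts ran from 3.09 to 3433, and the median over these members was 737 at day 85, against 945 at day 45. RPS12, a small-subunit protein, had the highest level at 2951 ± 241 FPKM at day 85, against 3914 ± 453 FPKM at day 45 (SD, n = 3 each). RPS20, a protein of the small-subunit head, followed at 2089 ± 369 FPKM at day 85, against 2905 ± 282 FPKM at day 45. RPL6, of the large subunit, had 1684 ± 146 FPKM at day 85, against 2025 ± 116 FPKM at day 45. These 3 led at both ages, and RPS27 and RPS18 came next when all 6 libraries were averaged, at 1711 and 1634 FPKM. Across the 66 members, Spearman's rho of FPKM between libraries was 0.977 to 0.991 over 15 library pairs. This is a description across genes, which share gene lengths and, within an age, the tissue.

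**Figure D2:**
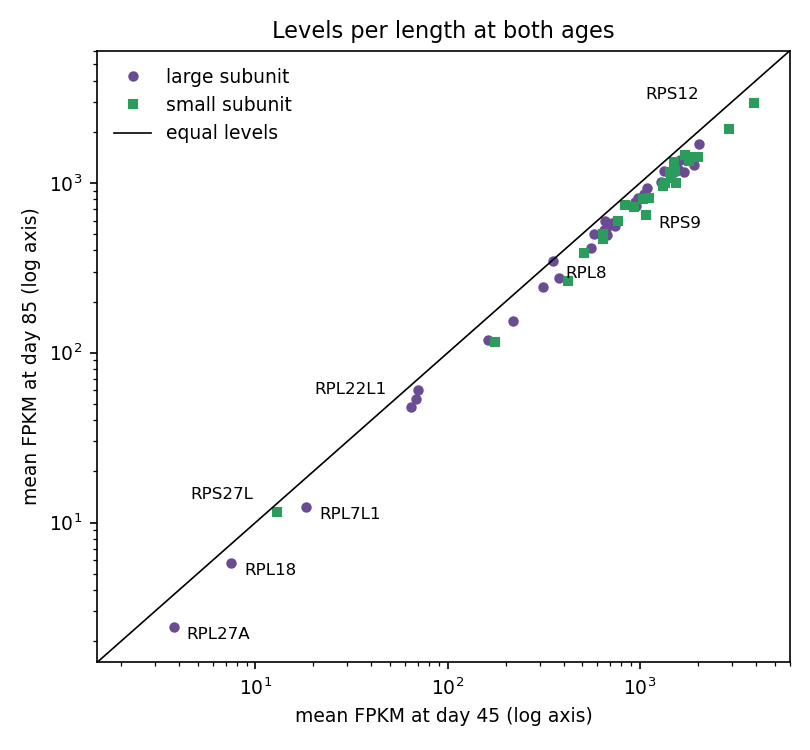
Mean deposited FPKM of each tested member at day 85 (vertical, log axis) against day 45 (horizontal, log axis); circles are large-subunit and squares small-subunit genes, and the line marks equal levels. The points form a narrow band under the line, with RPS12 highest and RPL27A lowest, and RPL8 on the line.

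Gene by gene, the lower level was small and shared by nearly all tested members, and no member passed the test. Fold changes are log2 of day 85 over day 45 from edgeR's quasi-likelihood test, called at a Benjamini-Hochberg adjusted p under 0.05 over all 15022 genes tested. Of the 60 tested members 0 were called, against 6.56% of all tested genes (3.9% higher and 2.66% lower at day 85), and the lowest adjusted p of a member by edgeR was 0.0601. At an unadjusted p under 0.05, 27 members were lower at day 85, which is 45% of them beside 13.3% of all tested genes, and 0 were higher. DESeq2 called 24 of the 62 members it gave an adjusted p, all lower, which is 38.7% beside 10.8% called lower among all genes it gave one. With library totals alone as the scaling edgeR called 5 members lower (RPL15, RPL17, RPL7L1, RPS9 and RPSA), beside 3.85% of all tested genes called lower. With upper-quartile scaling it called 3 (RPL15, RPL7L1 and RPS9), beside 3.26%, and limma-voom called 0, beside 2.5%. The members' median was -0.34, with quartiles of -0.42 and -0.26 and a median standard error of 0.15. The median of all tested genes was 0.02, and that of the 1822 tested genes averaging at least 100 CPM was -0.11. With TMM scaling 59 of 60 members had a negative fold change, beside 48.2% of all tested genes, and with upper-quartile scaling or library totals alone all 60 did. In 39 members, or 65%, the 3 day 85 libraries lay below the 3 day 45 libraries, beside 17.6% of all tested genes, and in 0 members did they lie above. Of the 60 tested members 52 averaged at least 100 CPM. Among all tested genes that abundant the shares were larger. There 26.9% lay lower without overlap, 21.5% were lower at an unadjusted p under 0.05 and 60.6% had a negative fold change. The members were measured in the same 6 libraries, so these counts are not independent observations.

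By the edgeR estimate, 18 members were at least 25% lower at day 85, 40 were between 10% and 25% lower, and 2, RPL37 and RPL8, were less than 10% lower or higher. The share of all genes within these size ranges was not counted. The lower quartile of the log2 fold change was -0.42 for the members. It was -0.28 over all tested genes and -0.35 over those averaging at least 100 CPM. Small-subunit members had a median of -0.38, and 15 of 25, or 60%, were lower at an unadjusted p under 0.05. Large-subunit members had a median of -0.32, and 12 of 35, or 34.3%, were lower at that p. Beside these, 13.3% of all tested genes and 21.5% of those averaging at least 100 CPM were. The difference between subunits at the level of their summed counts is the ratio given above, whose ages overlapped.

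**Figure D3:**
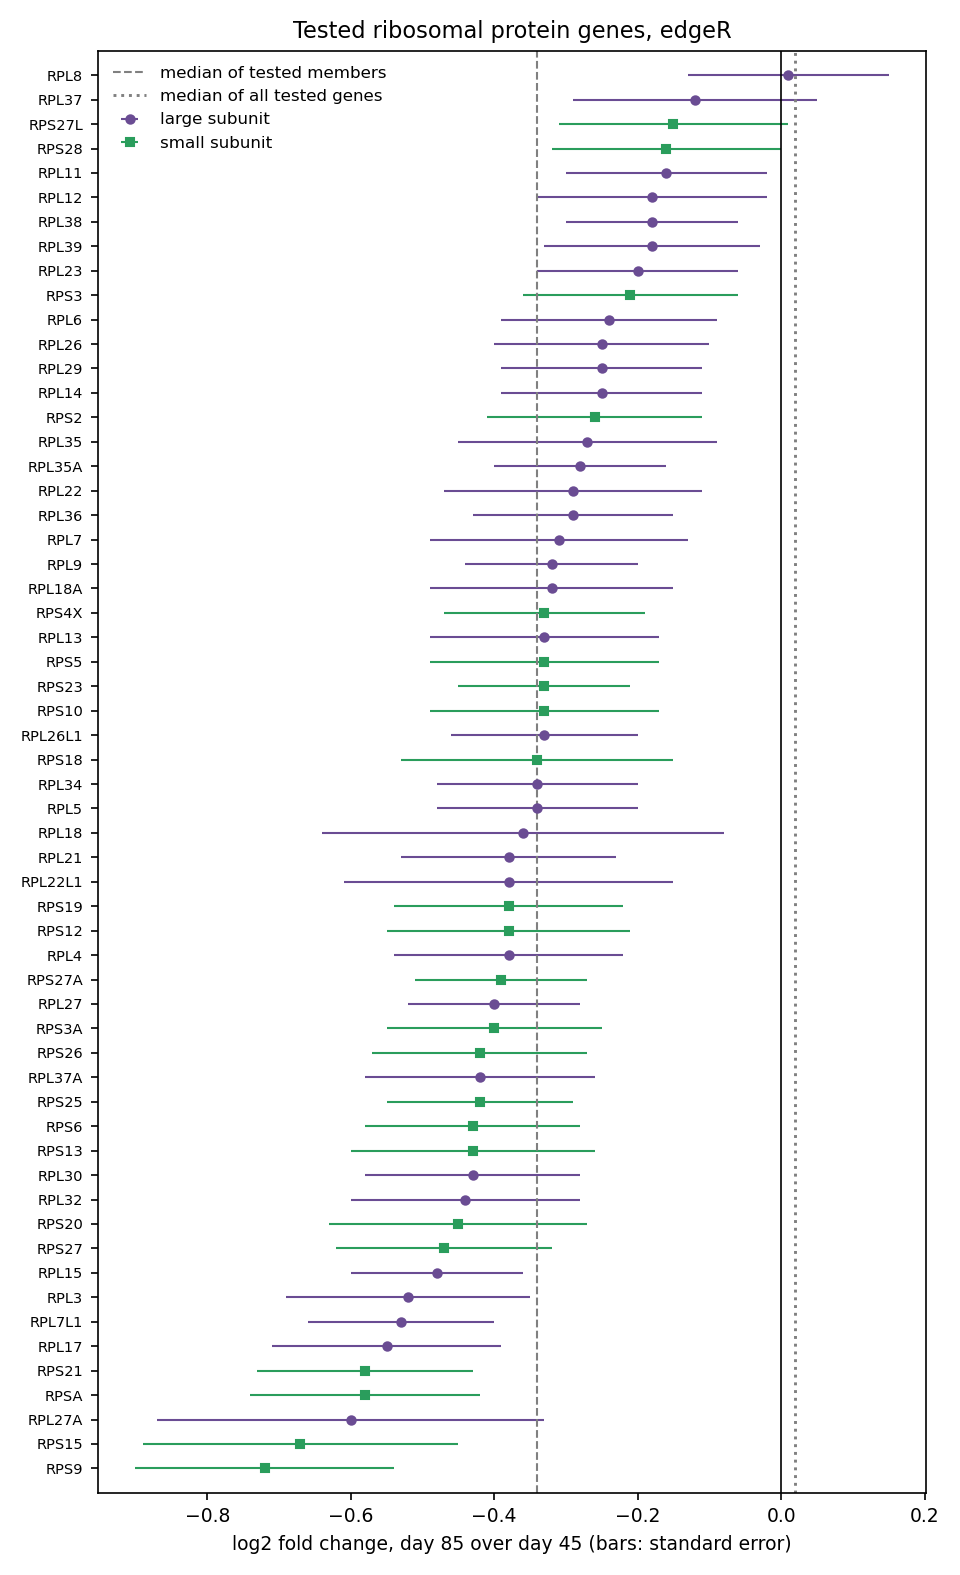
Log2 fold change, day 85 over day 45, of 58 of the 60 tested members with TMM scaling (points, with bars of 1 standard error); circles are large-subunit and squares small-subunit genes, the dashed line is the members' median (-0.34) and the dotted line that of all tested genes (0.02). From RPS9 at -0.72 to RPL37 at -0.12 every estimate is negative; RPL8 stands at 0.01 here and is negative with library totals alone.

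Among small-subunit proteins, RPS9 had the most negative estimate. This protein binds the small-subunit rRNA early in assembly, and its gene lies on chromosome 6 (ENSSSCG00000029785). RPS9 stood at 361, 406 and 373 CPM at day 85, against 677, 717 and 483 CPM at day 45. All day 85 libraries lay below all day 45 libraries, with day 45 replicate 3 nearest. The log2 fold change was -0.72 (SE 0.18, edgeR adjusted p = 0.0601), so RPS9 missed the threshold with TMM scaling; with library totals alone its edgeR adjusted p was 0.0383.

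RPS15, a protein of the small-subunit head that pre-40S particles need to leave the nucleus, had 1023, 745 and 630 CPM at day 85, against 1331, 1413 and 1062 CPM at day 45. The ages did not overlap, but day 85 replicate 1 came within a few percent of day 45 replicate 3. The log2 fold change was -0.67 (SE 0.22, edgeR adjusted p = 0.11). RPS21 stood at 29.6, 32.1 and 26.9 CPM at day 85, against 51.9, 40.2 and 40.5 CPM at day 45. Here the day 45 libraries spread more than those of day 85, and the log2 fold change was -0.58 (SE 0.15, edgeR adjusted p = 0.0638). A second row annotated as S21e had far more counts, at 204, 249 and 202 CPM at day 85, against 265, 318 and 216 CPM at day 45, and there the ages overlapped. That second row spans no more than its gene length, as a row without introns does, while the named RPS21 row spans 3.599 times its length.

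The most abundant small-subunit genes showed the same direction at smaller size. RPS12 stood at 1543, 1521 and 1371 CPM at day 85, against 2178, 2018 and 1583 CPM at day 45 (a log2 change of -0.38, SE 0.17, edgeR adjusted p = 0.193). Its ages did not overlap, and day 45 replicate 3 lay close to the day 85 libraries. RPS20 stood at 1262, 1034 and 980 CPM at day 85, against 1655, 1580 and 1251 CPM at day 45 (-0.45, SE 0.18, edgeR adjusted p = 0.153). Here day 45 replicate 3 lay just under day 85 replicate 1, so the ages overlapped. RPS27, a zinc-binding protein of the small subunit, stood at 362, 363 and 338 CPM at day 85, against 537, 527 and 408 CPM at day 45, with no overlap (-0.47, SE 0.15, edgeR adjusted p = 0.0972). RPS18, in the head of the subunit, stood at 832, 726 and 699 CPM at day 85, against 1176, 930 and 761 CPM at day 45, where the ages overlapped (-0.34, SE 0.19, edgeR adjusted p = 0.278).

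Further small-subunit members are given for their known roles. RPSA, which also serves as a laminin-binding protein, stood at 624, 702 and 620 CPM at day 85, against 992, 1088 and 828 CPM at day 45 (a log2 change of -0.58, SE 0.16, edgeR adjusted p = 0.0694). RPS6, the substrate of the S6 kinases, stood at 1179, 1302 and 1165 CPM at day 85, against 1729, 1733 and 1442 CPM at day 45 (-0.43, SE 0.15, edgeR adjusted p = 0.121). In both genes the ages did not overlap. RPS27A, made as a fusion with ubiquitin, had a narrow spread within each age, at 744, 731 and 735 CPM at day 85, against 1008, 973 and 915 CPM at day 45 (-0.39, SE 0.12, edgeR adjusted p = 0.101). RPS19 and RPS26, both mutated in the human anaemia named after Diamond and Blackfan, had log2 fold changes of -0.38 and -0.42 (SE 0.16 and 0.15), again with no overlap of the ages. DESeq2 called RPSA, RPS6, RPS27A and RPS26 but not RPS19 (adjusted p = 0.00187, 0.0158, 0.00211, 0.0259 and 0.0612).

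In the large subunit, the most negative estimate belonged to RPL27A, whose named row held little RNA at 1.24, 1.27 and 1.25 CPM at day 85, against 2.33, 1.66 and 1.7 CPM at day 45 (a log2 change of -0.60, SE 0.27, edgeR adjusted p = 0.199). The row annotated as L27Ae carried most of these reads, at 873, 859 and 787 CPM at day 85, against 1199, 1249 and 846 CPM at day 45 (-0.39, SE 0.18, edgeR adjusted p = 0.216), and there the ages overlapped. RPL17, at the exit of the tunnel through which the new protein leaves, stood at 1155, 1233 and 1076 CPM at day 85, against 1850, 1759 and 1452 CPM at day 45. Its log2 fold change was -0.55 (SE 0.16, edgeR adjusted p = 0.0807), with no overlap.

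RPL3, near the site of peptide bond formation, stood at 1393, 1769 and 1492 CPM at day 85, against 2384, 2395 and 1915 CPM at day 45 (a log2 change of -0.52, SE 0.17, edgeR adjusted p = 0.109). RPL15 stood at 99.4, 113 and 98.1 CPM at day 85, against 149, 153 and 131 CPM at day 45 (-0.48, SE 0.12, edgeR adjusted p = 0.0645). RPL4, which lines the exit tunnel, stood at 2013, 2022 and 1893 CPM at day 85, against 2905, 2580 and 2219 CPM at day 45 (-0.38, SE 0.16, edgeR adjusted p = 0.174). In these 3 genes every day 85 library lay below every day 45 library. RPL6, the most abundant large-subunit member per length, stood at 1638, 1550 and 1481 CPM at day 85, against 1956, 1949 and 1607 CPM at day 45, and its ages overlapped (-0.24, SE 0.15, edgeR adjusted p = 0.331).

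RPL5 and RPL11, which form a particle with 5S rRNA that binds the p53 regulator MDM2, both had negative estimates. RPL5 stood at 1296, 1204 and 1198 CPM at day 85, against 1712, 1521 and 1454 CPM at day 45, with no overlap (a log2 change of -0.34, SE 0.14, edgeR adjusted p = 0.165). RPL11 stood at 940, 864 and 886 CPM at day 85, against 1070, 1024 and 906 CPM at day 45, with overlap (-0.16, SE 0.14, edgeR adjusted p = 0.472). The standard error of each gene is nearly as large as the gap between their estimates. That gap was not tested, and no difference between these genes is shown.

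Some members are tied to the skeleton by genetics. RPL38, whose loss of a copy in the mouse disturbs patterning of the axial skeleton, stood at 243, 230 and 212 CPM at day 85, against 285, 254 and 238 CPM at day 45, where the ages overlapped (log2 fold change -0.18, SE 0.12, edgeR adjusted p = 0.362). RPL13, mutated in a human spondyloepimetaphyseal dysplasia, stood at 1080, 1287 and 1157 CPM at day 85, against 1617, 1560 and 1260 CPM at day 45, also with overlap (-0.33, SE 0.16, edgeR adjusted p = 0.225).

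RPL8 and RPL37 differed least between the ages. RPL8, which lies near the peptidyl transferase centre, stood at 1428, 1341 and 1523 CPM at day 85, against 1375, 1540 and 1345 CPM at day 45. The highest and the lowest of the 6 libraries were a day 45 and a day 85 library, and the values interleaved. Its log2 fold change was 0.01 (SE 0.14, edgeR adjusted p = 0.97) and turned to -0.018 with library totals alone. RPL37 stood at 775, 614 and 618 CPM at day 85, against 773, 788 and 619 CPM at day 45 (-0.12, SE 0.17, edgeR adjusted p = 0.666). Its highest day 85 library matched the day 45 level and its lowest day 45 library matched the day 85 level.

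**Figure D4:**
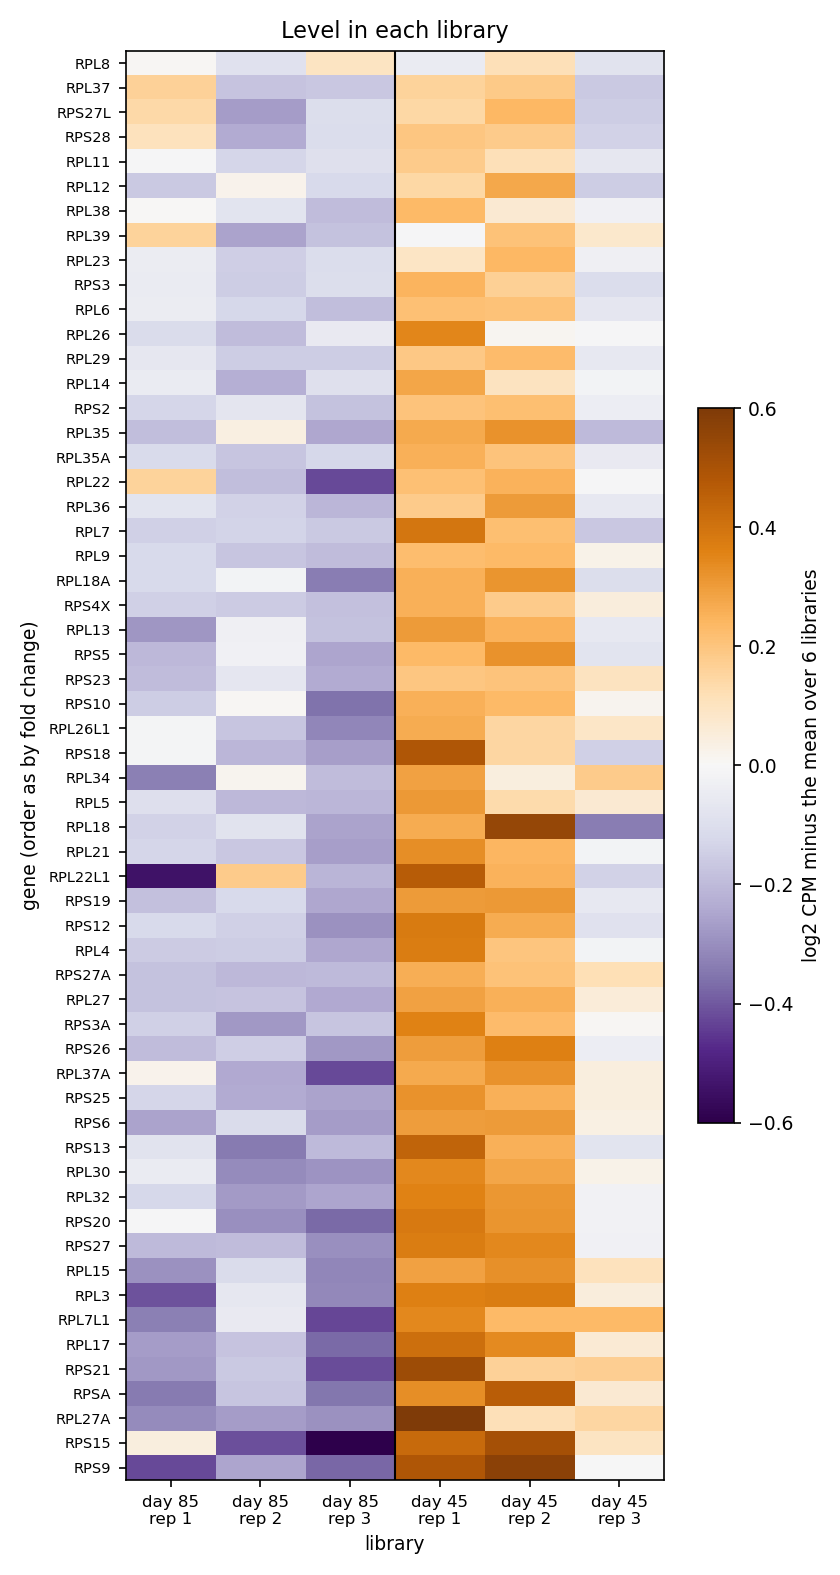
Level of 58 of the 60 tested members in each library as log2 CPM minus the gene's mean over the 6 libraries (colour scale; orange above, purple below), genes ordered by fold change, the 3 day 85 libraries left of the 3 day 45 libraries. Nearly all genes are purple at day 85 and orange in day 45 replicates 1 and 2, while day 45 replicate 3 is pale, the library with the lowest day 45 share (5.08%).

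Day 45 replicate 3 had the lowest day 45 share and also the lowest median member CPM of its age. The median was 720, 689 and 632 CPM in day 85 replicates 1, 2 and 3 and 975, 868 and 757 CPM in day 45 replicates 1, 2 and 3. In deposited FPKM the day 45 medians were 1005, 895 and 921, lowest in replicate 2. Without day 45 replicate 3 the members' median fold change was -0.44 and 38 members were lower at an unadjusted edgeR p under 0.05, which is 63.3% beside 11.6% of all genes. Without day 85 replicate 1, 30 members were (50% beside 11.3%), and without day 85 replicate 2, 18 were (30% beside 17.8%). Without day 45 replicate 1, without day 45 replicate 2 and without day 85 replicate 3, 7 members were in each case (11.7% beside 9.28%, 8.66% and 9.39% of all genes), a share near that of all genes. Without day 85 replicate 2 edgeR called 5 members lower (RPL15, RPL7L1, RPS21, RPS9 and RPSA), which is 8.33% beside 10% of all genes called lower in that fit.

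Within the family, expression was rescaled to the members' own total so that only the balance between genes remained. All tested genes then had a median of 0.34, as this scaling sets the family's own change to about 0. Of the members 33 were negative and 27 positive, 0 were called by edgeR, beside 0.842% of all genes called lower, and RPS9 alone had an unadjusted p under 0.05 (log2 fold change -0.37, SE 0.15, adjusted p = 0.125). RPL8 stood at the other end at 0.34 (SE 0.17, edgeR adjusted p = 0.185). RPS15 stood at -0.33 (SE 0.19). As a share of the family's counts, RPL21 varied least over the 6 libraries, with a coefficient of variation of 1.99%. RPS15, RPL22L1, RPS9 and RPL8 varied most, at 18.1%, 16.9%, 16.2% and 15.7%.

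The 4 members that are paralogs of another ribosomal protein made up 0.462%, 0.492% and 0.456% of the family's counts at day 85, against 0.476%, 0.463% and 0.5% at day 45 (exact permutation p = 0.5, adjusted 0.65). RPL7L1, a relative of RPL7 that acts in large-subunit assembly, had the largest difference of the 4. It stood at 62.6, 75.8 and 58.4 CPM at day 85, against 100, 92.3 and 92.4 CPM at day 45, with no overlap (a log2 change of -0.53, SE 0.13, edgeR adjusted p = 0.0605). RPL7 itself stood at 1529, 1543 and 1510 CPM at day 85, against 2214, 1967 and 1505 CPM at day 45, where day 45 replicate 3 lay below the day 85 libraries (-0.31, SE 0.18, edgeR adjusted p = 0.291). Per length, RPL7L1 reached 1.16%, 1.4% and 1.1% of the RPL7 level at day 85, against 1.29%, 1.33% and 1.75% at day 45 (exact permutation p = 0.3, adjusted 0.433).

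RPS27L, a p53-induced relative of RPS27, differed little, at 65.5, 49.4 and 55.5 CPM at day 85, against 65.7, 70 and 53.6 CPM at day 45 (a log2 change of -0.15, SE 0.16, edgeR adjusted p = 0.552). Relative to RPS27 per length it stood at 0.913%, 0.688% and 0.83% at day 85, against 0.618%, 0.671% and 0.665% at day 45. All day 85 ratios lay above all day 45 ratios, at the smallest exact permutation p that the design allows (p = 0.1, adjusted 0.186 over 13 tests). RPL22L1, which can take the place of RPL22, varied widely among libraries of an age, at 28.3, 46.6 and 35.5 CPM at day 85, against 56.9, 49 and 37.4 CPM at day 45 (-0.38, SE 0.23, edgeR adjusted p = 0.318). RPL22 stood at 308, 242 and 206 CPM at day 85, against 320, 329 and 275 CPM at day 45 (-0.29, SE 0.18, edgeR adjusted p = 0.315). In both genes the ages overlapped, and their FPKM ratio was 5.31% to 11.1% at day 85, against 7.86% to 10.3% at day 45.

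RPL26L1, nearly identical in sequence to RPL26, stood at 49.3, 44.2 and 39.9 CPM at day 85, against 59.7, 55 and 52.8 CPM at day 45 (a log2 change of -0.33, SE 0.13, edgeR adjusted p = 0.144). RPL26 stood at 768, 725 and 799 CPM at day 85, against 1056, 837 and 825 CPM at day 45 (-0.25, SE 0.15, edgeR adjusted p = 0.323). Neither gene's ages overlapped. Reads shared by such close copies could have been counted for either gene, so the values of single members with near-identical copies are uncertain.

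The gene names did not always sit on the expressed copy. Of the 66 members 6 did not pass the filter on low counts and hold 77 counts together. RPLP1, RPL28 and RPL36A had 0 counts in all 6 libraries, which allows up to 3 counts, or 0.181 to 0.239 CPM, in each library. RPL10 held 1 or 2 counts per library, and a table pairing gene IDs with symbols names that row RPL10L. RPLP2 held 3, 2 and 2 counts at day 85, against 12, 7 and 4 at day 45, and RPS16 held 6, 6 and 6 counts at day 85, against 7, 6 and 9 at day 45. These levels are those of the named rows: for RPLP1, RPLP2 and RPS16, other rows annotated as the same proteins held far more counts. RPL18 passed the filter, but its named row held only 300 counts over all libraries, while a row annotated as L18e held 29018.

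A further 25 rows are annotated as cytosolic ribosomal proteins but carry no such name in the table, and 22 of them were tested. They took 1.86%, 1.7% and 1.68% of counts at day 85, against 2.21%, 2.17% and 1.95% at day 45, with no overlap of the ages. Together with the members this makes 6.45%, 5.81% and 5.79% at day 85, against 8.07%, 7.73% and 7.02% at day 45. RPLP1, an acidic protein of the ribosomal stalk, had its reads in such a row (ENSSSCG00000004970), at 2096, 2239 and 2019 CPM at day 85, against 2427, 2684 and 2128 CPM at day 45 (a log2 change of -0.19, SE 0.16, edgeR adjusted p = 0.456). RPLP2, its partner in the stalk, stood at 781, 901 and 675 CPM at day 85, against 1095, 1042 and 815 CPM at day 45 in its expressed row (-0.32, SE 0.18, edgeR adjusted p = 0.277). RPS16 stood at 404, 476 and 384 CPM at day 85, against 523, 594 and 487 CPM at day 45 in its expressed row (-0.34, SE 0.15, edgeR adjusted p = 0.175). The stalk pair overlapped between ages and RPS16 did not.

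Of these 22 rows 21 had a negative fold change, with a median of -0.29, and edgeR called 0 of them, with 5 lower and 0 higher at an unadjusted p under 0.05, which is 22.7% lower beside 13.3% of all tested genes. DESeq2 called 2 lower, beside 10.8% of all genes. Without day 85 replicate 2 edgeR called 1 of the 22 rows lower (adjusted p = 0.046), beside 10% of all genes. With the members' total as library size edgeR called 1 of the 22 rows higher (adjusted p = 0.0349) and 0 lower, beside 1618 of 14958 genes called higher. The exception in direction was the row annotated as S29e, a small zinc-binding protein of the small subunit, at 370, 293 and 324 CPM at day 85, against 290, 283 and 229 CPM at day 45. All its day 85 libraries lay above all its day 45 libraries (log2 fold change 0.30, SE 0.15, edgeR adjusted p = 0.239). The row annotated as L7Ae, which spans no more than its own implied length, stood at 1930, 2021 and 2027 CPM at day 85, against 2621, 2569 and 2092 CPM at day 45 (-0.28, SE 0.16, edgeR adjusted p = 0.27). Among the tested members, RPL35A and RPL37A likewise have such rows without introns, and how reads were divided between copies is not known here. For RPL35A, another row annotated as L35Ae, which spans 8.432 times its implied length, held 23107 counts over all libraries, against 17627 in the member row.

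The genes around the ribosomal proteins were then read by list. RACK1, a scaffold on the small subunit, had a log2 fold change of -0.16 (SE 0.15, edgeR adjusted p = 0.497). Of 14 further TOP mRNAs tested, edgeR called 1 lower and 0 higher, with a median of -0.26, and DESeq2 called 3 lower and 0 higher. Beside these and the list counts that follow, edgeR called 2.66% of all genes lower and 3.9% higher, and DESeq2 10.8% lower and 12.6% higher. Numbers of genes tested are those of edgeR. DESeq2, fitted without edgeR's filter, took in 87 ribosome assembly, 38 initiation, 10 elongation and termination and 65 mitochondrial ribosomal protein genes. NPM1, a nucleolar chaperone of ribosome assembly, was the TOP mRNA that edgeR called lower. It stood at 376, 497 and 382 CPM at day 85, against 738, 755 and 689 CPM at day 45 (a log2 change of -0.80, SE 0.16, edgeR adjusted p = 0.0379). Of the 14 TOP mRNAs 12 had a negative fold change, beside 48.2% of all tested genes. EEF1A1, the elongation factor that delivers aminoacyl-tRNA, stood at 13747, 13229 and 13608 CPM at day 85, against 18238, 16436 and 15235 CPM at day 45, with no overlap (-0.30, SE 0.17, edgeR adjusted p = 0.275). EEF2, the translocation factor, stood at 3892, 4193 and 4105 CPM at day 85, against 4308, 4290 and 3924 CPM at day 45, with overlap (-0.04, SE 0.15, edgeR adjusted p = 0.882). Of the 9 elongation and termination factors tested 0 were called by edgeR or DESeq2, and 0 had an unadjusted edgeR p under 0.05, with a median of -0.16. Without day 85 replicate 2, 1 of the 9 was lower at that p, which is 11.1% beside 17.8% of all genes.

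Among 85 ribosome assembly genes tested, edgeR called 1 higher and 2 lower, with a median of -0.21, and DESeq2 called 2 higher and 20 lower. In the edgeR fit that leaves out day 85 replicate 2, 12 of them passed as lower and 1 as higher, beside 10% of all genes lower and 12.3% higher. WDR12, which acts with PES1 and BOP1 in large-subunit maturation, fell to 12.6, 15.5 and 14.6 CPM at day 85, against 22.5, 21.4 and 22.2 CPM at day 45 (a log2 change of -0.63, SE 0.14, edgeR adjusted p = 0.0448). NPM1 is the other that edgeR called lower. SBDS, which releases EIF6 from the large subunit and is mutated in human Shwachman-Diamond syndrome, went the other way. It rose to 99.8, 83.8 and 86.3 CPM at day 85, against 55.5, 57.9 and 54.5 CPM at day 45 (0.68, SE 0.12, edgeR adjusted p = 0.0288).

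Of 37 translation initiation factors tested, edgeR called 1 lower, with a median of -0.11, DESeq2 called 4 lower, and edgeR without day 85 replicate 2 called 3 lower, each with 0 higher. EIF4E2, a cap-binding protein that represses translation, fell to 36.2, 44.3 and 34.5 CPM at day 85, against 64.7, 62 and 55.9 CPM at day 45 (a log2 change of -0.67, SE 0.14, edgeR adjusted p = 0.0431). PABPC1, the poly(A)-binding protein, and EIF4G2 had fold changes of -0.27 and 0.02 (SE 0.16 and 0.14, edgeR adjusted p = 0.287 and 0.954), and the sign of EIF4G2 was negative with library totals alone.

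In a list of 25 genes around mTORC1 and MYC, edgeR called 2 higher and 0 lower, with a median of 0.09. DESeq2 called 2 higher and 3 lower, and edgeR without day 85 replicate 2 called 3 higher and 2 lower. PDCD4, an inhibitor of the initiation helicase EIF4A that S6 kinase marks for degradation, rose to 179, 178 and 170 CPM at day 85, against 113, 96.8 and 112 CPM at day 45 (a log2 change of 0.72, SE 0.11, edgeR adjusted p = 0.0259). MXI1, a MAX partner that opposes MYC, rose to 56, 50 and 46.4 CPM at day 85, against 33.6, 35.5 and 35.5 CPM at day 45 (0.54, SE 0.12, edgeR adjusted p = 0.0452). The MXI1 call was lost with library totals alone (edgeR adjusted p = 0.0686), without the filter (0.0552) and with limma-voom (0.0502). Ages did not overlap in any of the 6 genes called in these lists. Each of these 6 calls held without day 85 replicate 2 but was lost when any other single library was left out, with edgeR adjusted p-values of up to 0.161 for EIF4E2, 0.145 for NPM1, 0.166 for WDR12, 0.147 for SBDS, 0.129 for PDCD4 and 0.185 for MXI1.

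In the remaining lists edgeR called 0 genes with all libraries. The 63 mitochondrial ribosomal protein genes tested, which serve the separate ribosome of mitochondria, had a median of -0.04. At an unadjusted edgeR p under 0.05, 9 were lower, which is 14.3% beside 13.3% of all tested genes, and 2 were higher. DESeq2 called 6 lower and 1 higher, and edgeR without day 85 replicate 2 called 2 lower and 3 higher. MRPL17 and MRPL28, the most abundant of them, had log2 fold changes of -0.22 and -0.10 (SE 0.14 and 0.12). The 14 RNA polymerase I genes, which serve rRNA transcription, had a median of -0.05, with 0 called by DESeq2 and 0 at an unadjusted edgeR p under 0.05. Without day 85 replicate 2, 2 of the 14 were lower at that p, which is 14.3% beside 17.8% of all genes. With all libraries, UBTF and POLR1A of this list stood at -0.13 and -0.05 (SE 0.16 and 0.15). The 17 cytosolic aminoacyl-tRNA synthetase genes had a median of -0.15, with 3 lower at an unadjusted edgeR p under 0.05, which is 17.6% of them, and 3 lower by DESeq2. KARS1 stood at -0.11 (SE 0.15) and GARS1 at -0.58 (SE 0.19, edgeR adjusted p = 0.109). GARS1 was called by DESeq2 (adjusted p = 0.0122) and by edgeR without day 85 replicate 2 (adjusted p = 0.0134), where it was the 1 gene of its list called lower.

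**Figure D5:**
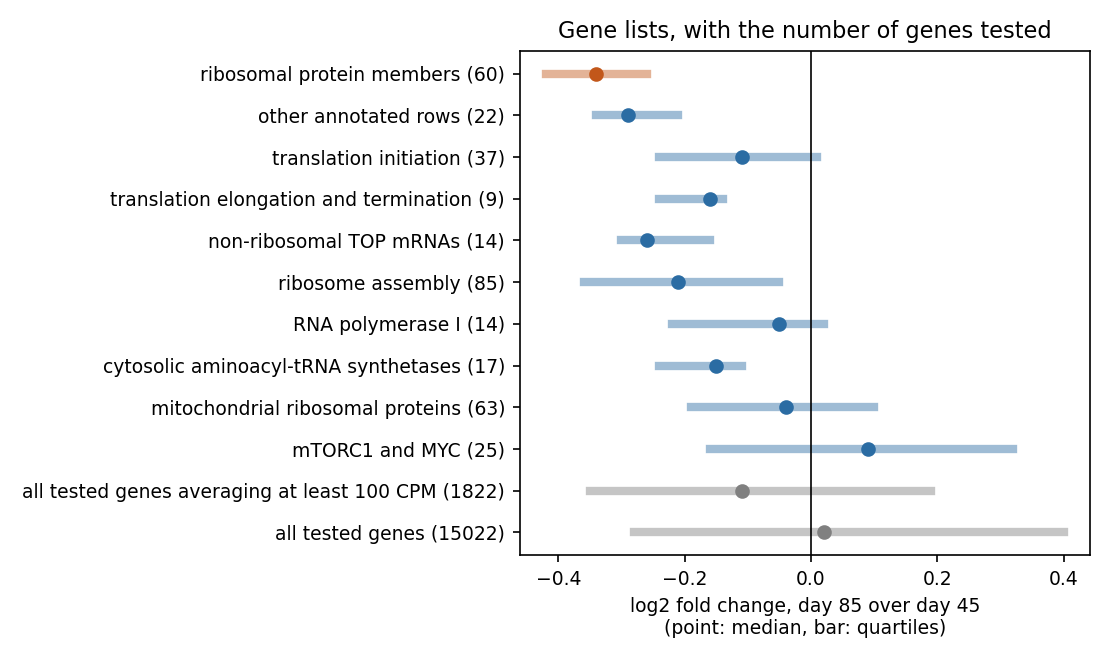
Median (point) and quartiles (bar) of the log2 fold change, day 85 over day 45, with TMM scaling, for the ribosomal protein members, the other annotated rows, 8 gene lists and, in grey, all tested genes and those averaging at least 100 CPM; the number of genes tested is in brackets. The members' median of -0.34 is the most negative of those shown, and mitochondrial ribosomal proteins at -0.04 lie near all tested genes at 0.02; differences between lists were not tested.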

How the data were processed

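Per the file headers, the authors deposited whole-number read counts per gene with FPKM values beside them. Dividing each count by its library total and by a constant per gene gave the FPKM, within 0.00158% over 12652 genes with at least 50 counts, so each constant was read as a gene length. The submitters' processing notes name HISAT2. Counting program, strand setting and build are not given in the sources used. The test across genes was edgeR 4.0.16 under R 4.3.3 (filterByExpr with minimum count 10, TMM, robust quasi-likelihood F test, age as the only factor) after a check on simulated data. DESeq2 1.42.0 and limma-voom (3.58.1) were alternatives, with other scalings, filters and left-out libraries. Shares were tested by exact permutation in SciPy 1.17.1.

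The members and gene lists were chosen with earlier results of these data known. The naming rule took the 4 members with the most positive and the 4 with the most negative change, the 5 highest and 3 lowest by FPKM, and paralogs with their parents, and from each list up to 4 called genes or the 2 most abundant. RPL3, RPL4, RPL5, RPL11, RPL13, RPL15, RPL17, RPL21, RPL38, RPS6, RPS19, RPS26, RPS27A, RPSA and the annotated rows were added after their values were seen. Single values of a few genes are not reported here. Of 330 list entries 29 had no row.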

Additional observations from a re-analysis of the deposited data

How the results depend on the processing

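The members' share was lower at day 85 under each denominator and left-out library tried, and their median was negative under each filter, tool, left-out library and scaling other than the family total, but which single members passed depended on the choice. edgeR called 0 members lower with TMM, RLE, no filter, a filter of 1 CPM or limma-voom in its place, 3 with upper-quartile scaling, 5 with library totals alone and 0 to 5 leaving out 1 library, while DESeq2 called 24. All genes called numbered 986, against 3834 with DESeq2, 1744 with the family total as library size and 0 to 3412 leaving out 1 library. The share difference was -1.23 points, -2.51 by FPKM and, an alternative chosen after seeing the data, -1.59 with the other annotated rows. With the family total as library size the median was -0.0032, near 0 by construction, and 26 tested members changed sign. The calls of EIF4E2, NPM1 and WDR12 were lost there (edgeR adjusted p = 0.151, 0.0984 and 0.27). Among genes named by the rule, members or not, the sign changed for RPL22 (0.04), RPL26 (0.09), RPL37 (0.22), RPL6 (0.1), RPL7 (0.035), RPS27L (0.18), RACK1 (0.17), PABPC1 (0.05), EEF1A1 (0.035), EEF2 (0.29), UBTF (0.21), POLR1A (0.28), MRPL17 (0.12), MRPL28 (0.23) and KARS1 (0.22), and RPL11 (0.18), RPL38 (0.15) and RPL13 (0.01) were among the other members that turned positive. RPL8 turned to -0.017 with upper-quartile scaling, -0.018 with library totals, -0.013 with no filter and ranged from -0.035 to 0.07 leaving out 1 library, negative in 4 such fits (-0.026, -0.031, -0.0078 and -0.035). EIF4G2 turned to -0.015, -0.024 and -0.0095 under those 3 settings and ranged from -0.07 to 0.11 leaving out 1 library (-0.0096 and -0.0097 in other such fits), and POLR1A ranged from -0.2 to 0.034, positive without day 85 replicate 1. To look for pairing, each gene's deviation from its age mean in log2 CPM was correlated over genes between same-numbered libraries of the ages. These correlations of deviations, not of levels, were 0.0128, 0.25 and 0.0404, so the numbers were not taken as pairs. With the replicate block edgeR called 682 genes and 0 members (median -0.33). Of the 6 genes called in the lists PDCD4 alone passed there (adjusted p = 0.0493), with the others at 0.052 to 0.0749. Few counts in their named rows limit RPL18 and RPL27A, whose standard errors were 0.28 and 0.27 beside a median of 0.15 over tested members.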
